A study of Homo sapiens with 8 samples.

Results

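The insulin-like growth factor (IGF) axis was followed through 10 genes: the receptors IGF1R, INSR and IGF2R, the docking proteins IRS1 and IRS2, the ligand IGF2, and the binding proteins IGFBP2, IGFBP3, IGFBP4 and IGFBP5. A probe set was taken as a member when the array annotation mapped it to exactly 1 of these genes. The rule gave 19 probe sets of 9 genes, out of 22215 probe sets of 11963 genes on the array. IGF1R had 3 of them, IGF2R, INSR, IRS2 and IGFBP3 had 2 each, IRS1, IGFBP2 and IGFBP4 had 1 each, and IGFBP5 had 5. The probe sets for IGF2 are annotated to a neighbouring read-through gene as well, so IGF2 is not analysed here.

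The samples were 8 Affymetrix arrays of the established human neuroblastoma line SH-SY5Y, which resembles sympathetic neuroblasts. Clones B and G were stable transfectants carrying RNAi against DJ-1, the redox-responsive protein that PARK7 encodes and that is lost in a recessive form of Parkinson disease. Clones H and M were stable transfectants carrying the scramble RNAi. Every clone had 2 arrays, titled replicate 1 and replicate 2, which gave 4 knockdown and 4 scramble arrays. Each condition was thus represented by 2 clones, and nothing in the labels states that duplicates came from separate cultures, so the p-values reflect a spread among arrays that may be technical.

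IGF1 and IGF2 bind IGF1R, a receptor tyrosine kinase that signals through the docking proteins IRS1 and IRS2 to phosphoinositide 3-kinase and AKT. INSR, the insulin receptor, is the closest relative of IGF1R and forms hybrids with it, whereas IGF2R carries no kinase, removes IGF2 from the cell surface and sorts lysosomal enzymes that bear mannose 6-phosphate. The binding proteins are secreted, hold the ligands away from the receptor or deliver them to it, and release them when proteases cut them. Neuroblastoma cells are known to make IGF2 and to use IGF1R for survival.

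Values are log2 probe-set signals, so a difference of 1 is a doubling. Signals of different probe sets are not strictly comparable, so results are read as differences within a probe set. Levels set against all probe sets, and summed signals of marker lists, are rough guides, and the sums weigh bright probe sets most. The median signal lay between 8.03 and 8.08 on every array. PARK7 lay between 10.05 and 10.45 on the knockdown arrays and between 12.95 and 13.14 on the scramble arrays, a difference of -2.90 (SE 0.09, limma adjusted p = 1.67e-06). Of 16 adrenergic neuroblast markers measured, 15 lay above the median probe-set signal of 8.06, the exception being TH. So did 9 of 18 mesenchymal neuroblastoma, 6 of 12 fibroblast and smooth muscle and 1 of 8 Schwann and melanocytic markers. None of 6 leukocyte and none of 7 epithelial markers did. RNA integrity, read as the 3' minus 5' difference of ACTB, was 0.24 to 0.46 on the knockdown arrays and 0.10 to 0.30 on the scramble arrays. Within the scramble condition it was 0.19 to 0.30 in clone H and 0.10 to 0.11 in clone M. The same difference of GAPDH was 0.05 to 0.09 on the knockdown and 0.02 to 0.13 on the scramble arrays. The part of RNA integrity in the differences below was not tested.

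In the comparison of knockdown with scramble clones, IRS2 and IGF1R carried lower signals after DJ-1 knockdown, by 1.40-fold and 1.56-fold in their brightest probe sets. No member was called higher. A probe set was called when its limma p-value, adjusted by Benjamini-Hochberg over all 22215 probe sets, was below 0.05. By that rule 3 of the 19 member probe sets were called, against 2.96% of all probe sets, and all 3 were lower, against 1.43% of all probe sets called lower. The differences of the 19 had a median of -0.29, against 0.0029 over all probe sets, and 13 of them were negative, against 49.3% of all probe sets. In 5 of the 19 the knockdown and scramble arrays did not overlap, which held for 11.7% of all probe sets. When the duplicates were averaged first and 2 clones were set against 2, no member was called in limma, and 1 probe set of the whole array was. In that fit 9 members had an unadjusted p below 0.05, against 3512 of all 22215 probe sets. No member was called without clone B, without clone G, within replicate 1 or within replicate 2 either. Those fits called 13, 22, 18 and 1 probe sets of the array. They gave 7, 6, 7 and 8 members an unadjusted p below 0.05, against 1920, 2672, 3403 and 2850 of all probe sets.

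The bases just upstream of the start of IRS2, IGF1R and IGFBP4 are shown because these 3 genes carried the lower signals with the smallest p-values among the members. They are the 250 bases before the RefSeq start in build GRCh38.p14, read 5′ to 3′ on the strand of the gene. Capitals mark the GC box GGGCGG, the binding motif of SP1-type factors, or its reverse complement CCGCCC, and in IGFBP4 also the TATA box TATAAA. IRS2 lies at chr13:109786584-109786833 on the minus strand, IGF1R at chr15:98648289-98648538 on the plus strand, and IGFBP4 at chr17:40443200-40443449 on the plus strand.
IRS2: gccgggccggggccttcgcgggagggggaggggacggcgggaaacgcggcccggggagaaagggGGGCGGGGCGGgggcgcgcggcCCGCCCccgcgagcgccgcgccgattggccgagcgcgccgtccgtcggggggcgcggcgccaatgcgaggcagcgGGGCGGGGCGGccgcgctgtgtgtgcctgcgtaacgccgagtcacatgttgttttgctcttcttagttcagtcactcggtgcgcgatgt
IGF1R: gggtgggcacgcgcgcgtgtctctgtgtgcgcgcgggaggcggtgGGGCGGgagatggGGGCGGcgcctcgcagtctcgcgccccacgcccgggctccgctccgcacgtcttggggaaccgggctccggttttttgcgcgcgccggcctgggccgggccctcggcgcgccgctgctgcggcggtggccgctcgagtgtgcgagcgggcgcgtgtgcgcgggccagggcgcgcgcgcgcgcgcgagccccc
IGFBP4: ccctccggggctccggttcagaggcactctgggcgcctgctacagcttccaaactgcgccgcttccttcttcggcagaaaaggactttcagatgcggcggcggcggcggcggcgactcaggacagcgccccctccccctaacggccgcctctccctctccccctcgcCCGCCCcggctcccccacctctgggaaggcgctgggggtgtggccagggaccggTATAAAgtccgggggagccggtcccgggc
The IRS2 window held 5 GC boxes and was 76.4% G or C, and the IGF1R window held 2 and was 81.2% G or C. The IGFBP4 window held 1 GC box and 1 TATA box and was 71.6% G or C. Over 35116 windows of this length, one for each RefSeq start used, 42.6% held a GC box on either strand, 10.7% held a TATA box, and the median G and C content was 58.0%. Neither the E-box CACGTG nor the FOXO element GTAAACA, searched on both strands, was found in any of the 3, and over all windows 6.34% and 2.98% held them. Of the other members, INSR held 4 GC boxes (78.4% G or C), IRS1 4 (80.8%) and IGF2R 6 (79.2%) with 3 E-boxes. IGFBP3 held 2 GC boxes (76.0%), IGFBP5 0 (61.2%), and the windows of IGFBP2 0 to 1 (56.4% to 69.2%). GC-rich windows were thus not particular to the genes shown. These matches describe letters only, and nothing in the arrays measured binding.

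IRS2 encodes the docking protein that couples IGF1R and INSR to phosphoinositide 3-kinase, and its probe sets had the smallest p-values of the axis. Probe set 209185_s_at of IRS2 read 11.93 and 11.95 in clone B, 12.10 and 12.15 in clone G, 12.55 and 12.56 in clone H, and 12.51 and 12.46 in clone M. The duplicates of each clone lay close together, and every knockdown array was below every scramble array. Means were 12.04 ± 0.11 in the knockdown and 12.52 ± 0.05 in the scramble condition (SD, n = 4 arrays each), a difference of -0.49 (SE 0.06) with a limma adjusted p of 0.00714. Probe set 209184_s_at of IRS2 read 10.34 and 10.17 in clone B, 10.37 and 10.38 in clone G, 10.97 and 10.75 in clone H, and 10.88 and 10.97 in clone M. It also showed no overlap, with a difference of -0.58 (95% interval -0.75 to -0.40, limma adjusted p = 0.00773). The scramble clones H and M differed by 0.07 and -0.06 in the 2 IRS2 probe sets (limma adjusted p = 0.737 and 0.873), and the knockdown clones B and G by -0.18 and -0.12 (limma adjusted p = 0.9999 for both, unadjusted p = 0.0425 and 0.348). Both calls were lost without the second array of clone B, with limma adjusted p of 0.0635 and 0.0764, and were kept without any other single array.

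IGF1R encodes the receptor through which both IGFs signal. Probe set 203628_at of IGF1R read 10.60 on both arrays of clone B, 10.44 and 10.68 in clone G, 11.04 and 10.95 in clone H, and 11.33 and 11.58 in clone M. All knockdown arrays lay below all scramble arrays, and within the scramble condition clone M was above clone H. Means were 10.58 ± 0.10 and 11.23 ± 0.29 (SD, n = 4 arrays each), a difference of -0.64 (SE 0.13) with a limma adjusted p of 0.0353. That call was lost when any 1 array of clone B or G, or the first array of clone M, was left out, and the limma adjusted p over the 8 omissions ran from 0.00354 to 0.172. Probe set 203627_at of IGF1R read 9.40 and 9.68 in clone B, 9.29 and 9.63 in clone G, 9.67 and 9.79 in clone H, and 10.18 and 10.33 in clone M. Its arrays overlapped between the conditions, since clone H reached down to the higher knockdown arrays. The difference was -0.50 (95% interval -0.85 to -0.14, limma adjusted p = 0.127), and was not called. The third probe set of IGF1R, 208441_at, averaged 5.85 over the 8 arrays, below the 25th percentile of all probe-set means (6.43), with a difference of -0.09 (95% interval -0.41 to 0.24, limma adjusted p = 0.773). The 2 brighter probe sets of the gene had differences of the same sign.

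**Figure D1:**
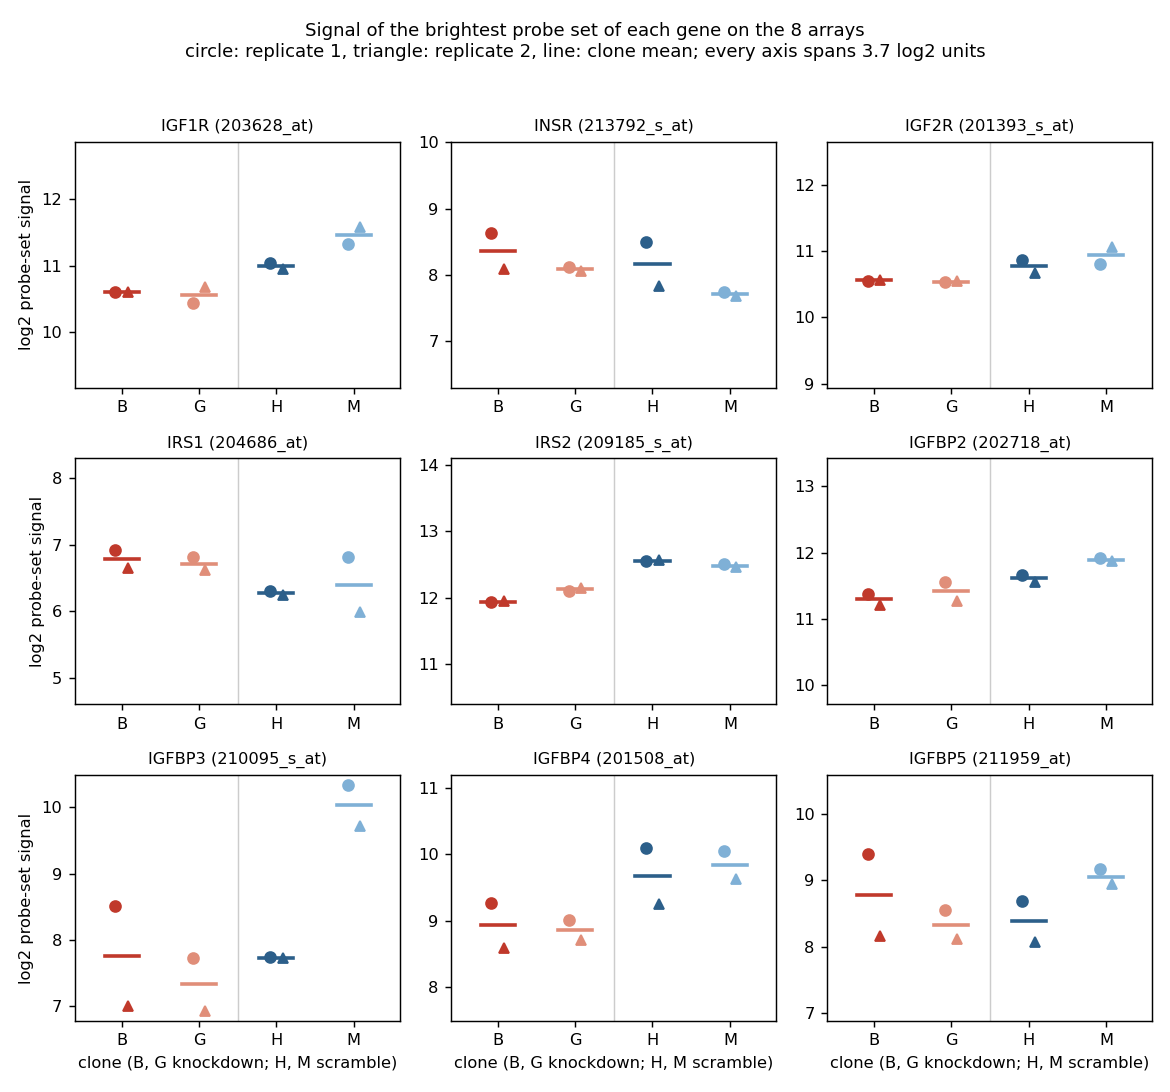
Log2 signal of the brightest probe set of each of the 9 genes on the 8 arrays, by clone (B and G knockdown, H and M scramble); circles are replicate 1, triangles replicate 2, lines clone means, and every vertical axis spans the same number of log2 units. For IRS2 the knockdown arrays end at 12.15 and the scramble arrays begin at 12.46, whereas for IGFBP3 clone M alone stands high, at 10.34 and 9.72.

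IGF2R, the clearance receptor of IGF2, had a small negative difference that was not called. Probe set 201393_s_at of IGF2R lay between 10.53 and 10.56 on the 4 knockdown arrays, and read 10.87 and 10.67 in clone H and 10.81 and 11.06 in clone M. The knockdown arrays were almost level and did not overlap with the more spread scramble arrays. The difference was -0.31 (95% interval -0.49 to -0.12, limma adjusted p = 0.0846). In the other IGF2R probe set, 201392_s_at, the groups overlapped, with knockdown arrays from 8.90 to 9.19, scramble arrays from 9.03 to 9.49, and a difference of -0.29 (95% interval -0.54 to -0.04, limma adjusted p = 0.193).

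INSR and IRS1 were the members whose differences were positive in every probe set, and neither was called. Probe set 213792_s_at of INSR read 8.63 and 8.09 in clone B, 8.12 and 8.06 in clone G, 8.50 and 7.84 in clone H, and 7.74 and 7.68 in clone M. The first arrays of clones B and H were the high ones, so the conditions overlapped, and the difference was 0.29 (95% interval -0.14 to 0.72, limma adjusted p = 0.434). The other INSR probe set, 207851_s_at, spanned 6.57 to 6.94 over all 8 arrays, with a difference of 0.05 (95% interval -0.15 to 0.25, limma adjusted p = 0.794). IRS1, the second docking protein, read 6.92 and 6.65 in clone B, 6.81 and 6.62 in clone G, 6.30 and 6.24 in clone H, and 6.81 and 5.98 in clone M. Only the first array of clone M reached the knockdown range, and the difference was 0.41 (95% interval 0.07 to 0.76, limma adjusted p = 0.180). Without that array IRS1 was called in limma. IRS1 and IRS2 thus had differences of opposite sign, and that contrast between the 2 genes was not itself tested. The IRS1 probe set averaged 6.54 over the 8 arrays, close to the 25th percentile of all probe-set means (6.43).

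Among the binding proteins, IGFBP4 had a lower signal in both knockdown clones than in either scramble clone, with a p-value at the threshold. IGFBP4 read 9.27 and 8.59 in clone B, 9.01 and 8.71 in clone G, 10.10 and 9.26 in clone H, and 10.05 and 9.64 in clone M. The second array was the lower one in all 4 clones, and the second array of clone H (9.26) lay just below the first array of clone B (9.27). The difference was -0.86 (SE 0.20), from 9.76 ± 0.40 to 8.90 ± 0.31 (SD, n = 4 arrays each), a 1.82-fold lower signal with a limma adjusted p of 0.0518. With the replicate number as a block the SE was 0.12 and the limma adjusted p 0.00983, which is a call. In that blocked fit 4 member probe sets were called, the 3 named above and IGFBP4, against 3.35% of all probe sets. Within replicate 1 the IGFBP4 difference was -0.93 and within replicate 2 it was -0.79.

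IGFBP2, the binding protein gene that lies next to IGFBP5 on chromosome 2, read 11.38 and 11.22 in clone B, 11.56 and 11.28 in clone G, 11.66 and 11.56 in clone H, and 11.92 and 11.87 in clone M. The highest knockdown and the lowest scramble array both rounded to 11.56, so the lack of overlap rests on a gap smaller than the last digit. The difference was -0.40 (95% interval -0.62 to -0.17, limma adjusted p = 0.0731). IGFBP5 had 5 probe sets and no difference that was called. Its brightest, 211959_at, read 9.39 and 8.17 in clone B, 8.55 and 8.12 in clone G, 8.69 and 8.08 in clone H, and 9.17 and 8.94 in clone M. The first array of clone B was the highest and the second array of clone H the lowest, and the difference was -0.16 (95% interval -0.83 to 0.51, limma adjusted p = 0.796). The other 4 IGFBP5 probe sets differed by -0.12 to 0.12, with limma adjusted p from 0.555 to 0.992, and probe set 203425_s_at stayed between 6.95 and 7.08 on all 8 arrays.

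**Figure D2:**
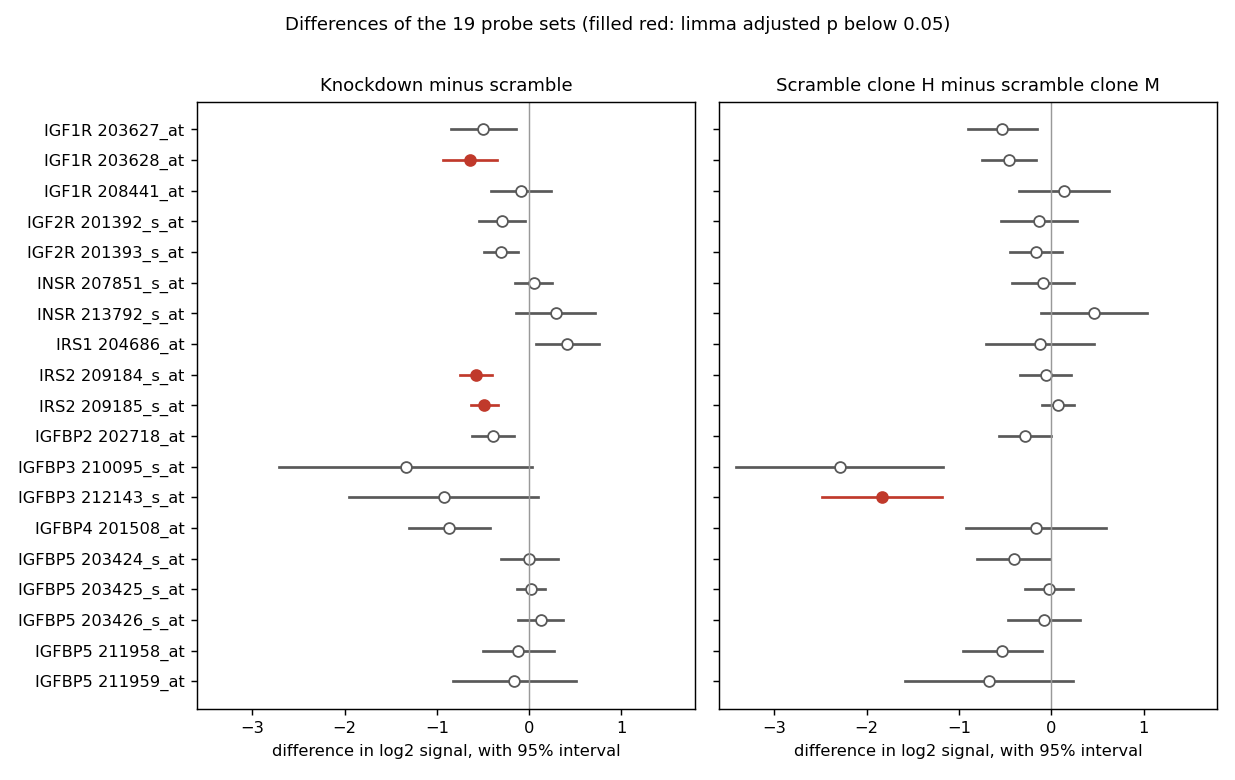
Difference in log2 signal for each of the 19 probe sets, knockdown minus scramble on the left and scramble clone H minus scramble clone M on the right, with 95% intervals from limma; filled red points have an adjusted p below 0.05. The 2 IRS2 probe sets and IGF1R 203628_at are red on the left (-0.58, -0.49 and -0.64), and IGFBP3 212143_s_at is red on the right (-1.84).

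IGFBP3, the main carrier of IGFs in serum, had the largest difference between the conditions and the widest spread over the arrays. The difference came from clone M. The spread did so only in part, since the knockdown arrays alone had an SD of 0.74 in probe set 210095_s_at. Probe set 210095_s_at of IGFBP3 read 8.51 and 7.01 in clone B, 7.73 and 6.93 in clone G, 7.74 and 7.73 in clone H, and 10.34 and 9.72 in clone M. The arrays of clone H lay inside the knockdown range, and those of clone M lay above all others. Knockdown minus scramble was -1.34 (95% interval -2.71 to 0.03, limma adjusted p = 0.260), and it was not called. Probe set 212143_s_at of IGFBP3 read 7.98 and 7.30 in clone B, 7.61 and 7.39 in clone G, 7.72 and 7.44 in clone H, and 9.73 and 9.09 in clone M. It had the same arrangement, with a knockdown difference of -0.92 (95% interval -1.95 to 0.10, limma adjusted p = 0.294).

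The comparison of the scramble clones with each other shows how far clones of the same condition lay apart. In clone H the signal of IGFBP3 was 3.57-fold lower than in clone M in probe set 212143_s_at, a difference of -1.84 (SE 0.28, limma adjusted p = 0.0325). The other IGFBP3 probe set differed by -2.29 (95% interval -3.41 to -1.17, limma adjusted p = 0.0904), a 4.90-fold lower signal in clone H. That made 1 of the 19 member probe sets called, against 1.05% of all probe sets, and the median over the members was -0.16 against 0.0063 over all probe sets, with 16 of the 19 negative. With the replicate number as a block 4 of the 19 were called, against 6.92% of all probe sets: both IGFBP3 probe sets (limma adjusted p = 0.00399 and 5.99e-04) and the IGF1R probe sets 203627_at and 203628_at (limma adjusted p = 0.0166 and 0.0363). Clone H was lower than clone M in IGF1R by -0.53 and -0.46 in those 2 probe sets. The IGFBP3 call was lost without any 1 array of clones G, H or M. Between the knockdown clones B and G no member was called in limma, and 1, IRS2 209185_s_at, had an unadjusted p below 0.05. Over the whole array 1 probe set was called there (0.0045%) and 208 had an unadjusted p below 0.05.

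Of the genes around IGFBP3 on chromosome 7, 5 were measured, and none was called between the scramble clones. IGFBP1, which adjoins it, differed by -0.03 (limma adjusted p = 0.933), ADCY1 by 0.42 (0.110), HUS1 by 0.04 (0.958) and RAMP3 by 0.11 (0.856), clone H minus clone M. TNS3, which adjoins IGFBP3 on the other side, differed by -0.84 (limma adjusted p = 0.479), and it was called lower in knockdown minus scramble (-1.92, limma adjusted p = 0.0220). IGFBP1 had a mean of 3.98, far below the 25th percentile of all probe-set means.

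Since clone M stood apart, the knockdown arrays were also set against each scramble clone alone, comparisons that share the knockdown arrays and rest on 1 control clone each. Against clone H 6 of 19 members were called (9.53% of all probe sets), and against clone M 13 of 19 (39.1% of all probe sets). In these fits limma estimated a correlation within clones of -0.543 and -0.585, which makes the standard errors smaller than those of independent arrays, so the counts are read only beside their backgrounds. The IRS2 differences were -0.52 and -0.55 against clone H and -0.45 and -0.61 against clone M, and IGFBP4 differed by -0.78 and -0.95. IGF1R 203628_at differed by -0.41 from clone H and by -0.88 from clone M. IGFBP3 212143_s_at differed by -0.01 from clone H (95% interval -0.28 to 0.26, limma adjusted p = 0.979) and by -1.84 from clone M (limma adjusted p = 8.32e-05).

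Markers of mesenchymal neuroblastoma cells, a state in which these lines can also grow, moved with the same clones. All 18 listed markers were measured, and 17 were negative in knockdown minus scramble, with a median of -0.56 against 0.0014 over all genes. The 1 call was the cadherin CDH11, where 3.14% of all genes were called. Against clone H alone the differences ran from -1.54 in CDH11 to 0.05 in ANXA1, and PRRX1, CD44, YAP1, CCN2 and ANXA1 were positive. In clone H minus clone M 15 were negative, with a median of -0.73 against 0.0112 over all genes. The 3 calls there were YAP1, CCN1 and ANXA2, where 1.17% of all genes were called. The log2 of the summed signal of the 18 was 13.98 to 14.46 on the knockdown arrays, 14.23 to 14.88 in clone H and 15.31 to 15.41 in clone M. For 12 fibroblast and smooth muscle markers it was 11.43 to 11.97, 11.92 to 12.08 and 12.74 to 13.18. Clone M was thus high for these lists as it was for IGFBP3. Of the 16 adrenergic markers 15 were positive in knockdown minus scramble, with a median of 0.17 and no call in limma (5 with an unadjusted p below 0.05). In clone H minus clone M 15 of the 16 were positive as well, with a median of 0.36 and 1 call, DBH, which makes noradrenaline. Their part in the IGFBP results was not tested, and in bulk RNA fewer cells of a type and less RNA per cell cannot be told apart.

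The replicate numbers formed the third comparison, because arrays of the same number deviated together from their clone means. In replicate 2 both IGFBP3 probe sets, IGFBP4 and 1 of the 5 IGFBP5 probe sets had lower signals than in replicate 1. With clone in the model 4 of 19 members were called, against 13.4% of all probe sets. All 4 were lower in replicate 2, against 8.76% of all probe sets called lower, and all belonged to binding proteins. The median over the members was -0.12, against 0.03 over all probe sets, and 14 of the 19 were negative. Mesenchymal neuroblastoma markers also moved with the replicate number: 6 of the 18 were called lower in replicate 2 and none higher, with a median of -0.26 against 0.0188 over all genes. The log2 of their summed signal was 14.32 to 15.41 in replicate 1 and 13.98 to 15.31 in replicate 2. The shift was not particular to that list, since 5 of the 16 adrenergic markers were called lower in replicate 2 and 1 higher, with a median of -0.12. The part of either marker list in the binding protein differences was not tested, and the labels do not say what the numbers stand for.

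IGFBP4 fell by 0.56 from replicate 1 to replicate 2 (SE 0.10, limma adjusted p = 0.0105), with differences of -0.68, -0.30, -0.84 and -0.41 in clones B, G, H and M. IGFBP5 211959_at fell by 0.62 (SE 0.15, limma adjusted p = 0.0294), with clone differences of -1.23, -0.43, -0.61 and -0.23. The size differed between clones, and the direction was the same in all 4. IGFBP3 212143_s_at fell by 0.45 (SE 0.10, limma adjusted p = 0.0230) and was lower in 4 of 4 clones. IGFBP3 210095_s_at fell by 0.73 (SE 0.20, limma adjusted p = 0.0478), with differences of -1.50, -0.80 and -0.62 in clones B, G and M, while clone H read 7.74 and 7.73. For comparison, the replicates differed by 0.01 in IRS2 209185_s_at (limma adjusted p = 0.894) and by 0.10 in IGF1R 203628_at (limma adjusted p = 0.380). IGF1R 203627_at was higher in replicate 2 in 4 of 4 clones, by 0.22 in the fit (limma adjusted p = 0.0590), and was called higher within the knockdown clones alone (limma adjusted p = 0.0117).

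Within the knockdown clones alone 6 of 19 members were called between the replicate numbers (26.9% of all probe sets), and within the scramble clones alone none was in limma (0.594% of all probe sets), where 5 members had an unadjusted p below 0.05. That contrast is not a tested difference. In the interaction of knockdown and replicate number 0 of 19 members were called by limma, and 0% of all probe sets, from a fit with 2 residual degrees of freedom. Over the array 1869 probe sets had an unadjusted p below 0.05 there. Of the members, 2 had an unadjusted p below 0.05, IGFBP3 210095_s_at and IGF1R 208441_at, and the lowest limma adjusted p was 0.573. The knockdown difference of IRS2 209185_s_at was -0.51 within replicate 1 and -0.46 within replicate 2, and that of IGF1R 203628_at was -0.66 and -0.63. With 2 arrays against 2, none of these reached an adjusted p below 0.05 in limma.

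**Figure D3:**
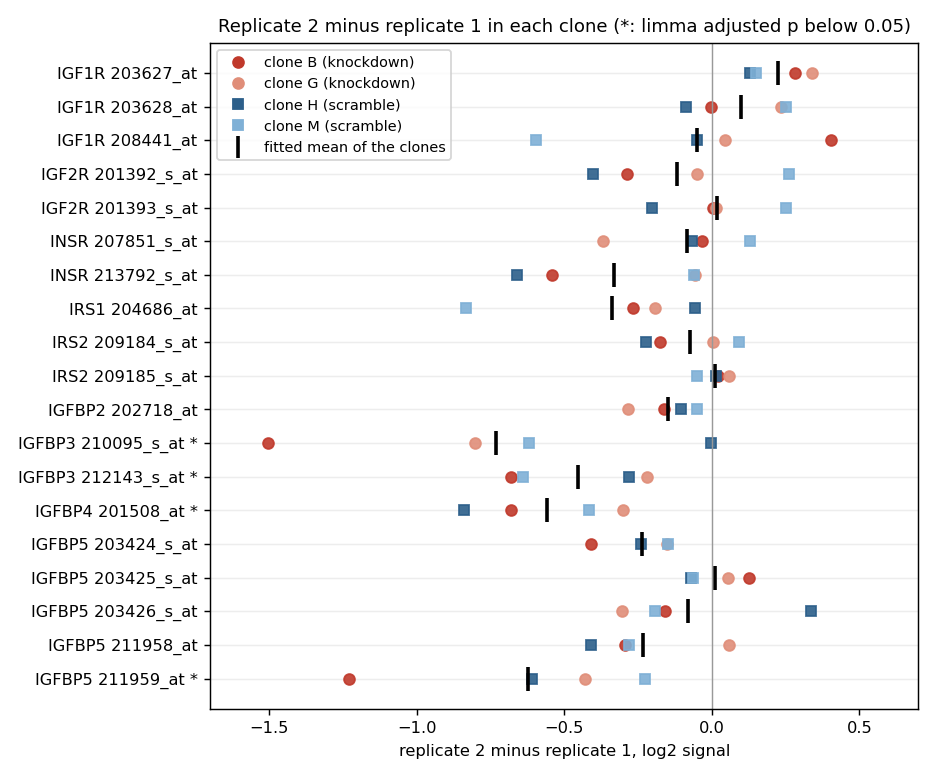
Replicate 2 minus replicate 1 in log2 signal, for each clone (circles knockdown clones B and G, squares scramble clones H and M) and as the fitted mean of the clones (black bar), for the 19 probe sets; an asterisk marks a limma adjusted p below 0.05. The 4 starred rows are IGFBP3, IGFBP4 and IGFBP5 probe sets, with fitted means from -0.73 to -0.45.

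The genes whose signals ran most like those of the members were found by Pearson correlation over the 8 arrays, as a description that includes the differences between the conditions. For IRS2 209185_s_at they were GNPDA1 (r = 0.98), EI24 (r = 0.97) and ITFG1 (r = 0.97), which differed by -0.32, -0.52 and -0.68 between knockdown and scramble. For IGFBP3 210095_s_at they were XYLT2 (r = 0.99), ENC1 (r = 0.98) and MLH3 (r = 0.98), none of them called between the conditions or between clones H and M. In clone H minus clone M they differed by -0.36, -0.81 and -0.24 (limma adjusted p = 0.286, 0.159 and 0.454). The first group followed the conditions, and the second followed the high signal of clone M.

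The rest of the pathway was described through 7 lists with 128 measured genes of 151 listed, each gene by its brightest probe set. Of the 128, 4 were called higher and 1 lower in the knockdown clones, against 3.14% of all 11963 genes called in either direction. The median over all genes was 0.0014. Without regard to direction that is 5 of 128, of the same order as the background. With clone means as the unit the limma adjusted p of these 5 genes ran from 0.0905 to 0.146.

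Upstream of the receptors no gene was called in limma, and 0 of 6 and 2 of 12 had an unadjusted p below 0.05. Of 6 further ligands and binding proteins, 3 differences were positive and 3 negative, with a median of -0.0017, and INS had the smallest p, with a difference of 0.15 (limma adjusted p = 0.291). Of 12 proteases and protease inhibitors that act on binding proteins, 3 were positive and 9 negative, with a median of -0.07. ADAM12, a metalloprotease that cuts IGFBP3 and IGFBP5, had the smallest p, with a difference of -1.04 (limma adjusted p = 0.107, and 0.0215 with the replicate block). Its other probe sets, all of lower signal, differed by -1.08, -0.38 and -0.09 (limma adjusted p = 0.0954, 0.188 and 0.753). MMP2, a gelatinase, differed by -0.69 (limma adjusted p = 0.110, and 0.0295 with the block). Between the scramble clones 4 genes of these lists, IGFBP6, HTRA1, TIMP1 and PRSS23, were called, all lower in clone H, where 1.17% of all genes were called. IGFBP6, a binding protein that prefers IGF2, differed there by -0.87 (limma adjusted p = 0.0183). MMP2 and the 4 genes called between the scramble clones were picked after their values were seen.

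The next 2 lists, at and below the receptor, held 3 of the called genes, all higher. Over the array 3.14% of all genes were called in either direction, and with clone means none of the 3 was called in limma. Of 32 receptor relatives, adaptors and regulators, 17 differences were positive and 15 negative, with a median of 0.0048 and 2 calls. SHC3, a neuronal adaptor of the SHC family, rose by 0.86 (SE 0.16, limma adjusted p = 0.0251). SOS1, the exchange factor that activates RAS, rose by 0.36 (SE 0.07, limma adjusted p = 0.0269), and its other probe set differed by 0.17 (limma adjusted p = 0.202). Of 22 genes of the phosphoinositide 3-kinase and AKT list, 15 were positive and 7 negative, with a median of 0.06 and 1 call.

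That call was PIK3R1, the regulatory subunit by which phosphoinositide 3-kinase docks on IRS proteins. It read 11.11 and 10.78 in clone B, 10.97 and 10.77 in clone G, 10.01 and 10.24 in clone H, and 9.30 and 9.46 in clone M. All knockdown arrays lay above all scramble arrays, and clone M was the lowest. The rise was 1.15 (SE 0.20), or 2.22-fold, with a limma adjusted p of 0.0200. The other PIK3R1 probe sets differed by 1.15 (limma adjusted p = 0.0150) and 0.75 (limma adjusted p = 0.0703).

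Further downstream 1 FOXO target gene was called, and 1 gene of the sorting list, a lysosomal enzyme. Of 18 genes around TSC and mTOR, the growth control kinase, 15 were positive and 3 negative, with a median of 0.07, no call in limma and 2 with an unadjusted p below 0.05. ULK1, a kinase that starts autophagy, had the smallest p there, with a difference of 0.40 (limma adjusted p = 0.0736). Of 22 FOXO factors and FOXO target genes, 9 were positive and 13 negative, with a median of -0.09. TRIB1, a pseudokinase, rose by 0.44 (SE 0.10, limma adjusted p = 0.0444), a call that the replicate block removed (adjusted p = 0.0815 in limma). Of 16 genes of IGF2 mRNA binding and mannose 6-phosphate sorting, 4 were positive and 12 negative, with a median of -0.04.

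CTSB, a lysosomal cathepsin that carries mannose 6-phosphate and is thus cargo of IGF2R, was the 1 gene called lower. It read 10.73 and 10.24 in clone B, 10.84 and 10.59 in clone G, 11.36 and 11.17 in clone H, and 11.71 and 11.59 in clone M. The conditions did not overlap, and the fall was 0.86 (SE 0.15, limma adjusted p = 0.0207). Its other 3 probe sets differed by -0.70, -0.45 and -0.29 (limma adjusted p = 0.0348, 0.156 and 0.0945). M6PR, the second mannose 6-phosphate receptor and picked after its value was seen, differed by -0.40 (limma adjusted p = 0.0531).

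**Figure D4:**
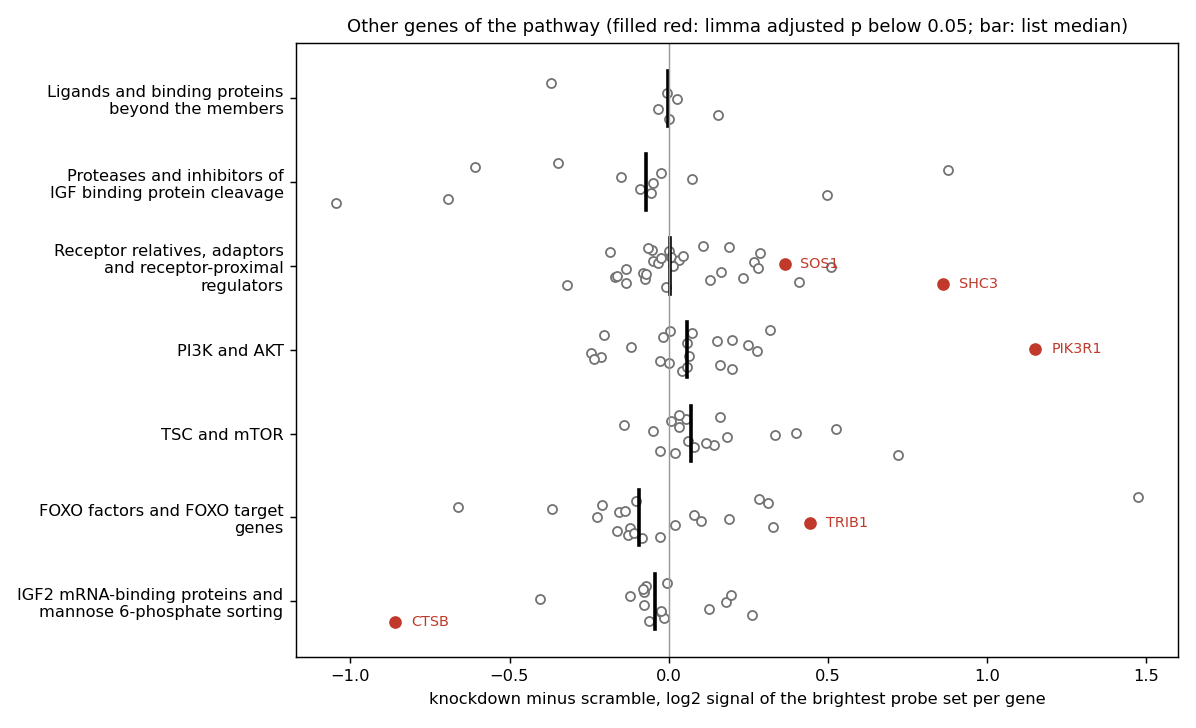
Knockdown minus scramble in log2 signal for the 128 measured genes of the 7 lists, 1 point per gene at its brightest probe set; bars are list medians and filled red points have a limma adjusted p below 0.05. The 5 red points are PIK3R1 (1.15), SHC3 (0.86), TRIB1 (0.44) and SOS1 (0.36) on the right and CTSB (-0.86) on the left.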

How the data were processed

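The authors deposited 1 table of log2 probe-set signals for 8 arrays, the scale being read from the values themselves. The submitters' processing notes name the tools GCOS and RMA, whose versions are not given in the sources used here. RMA subtracts background, forces all arrays to 1 distribution and combines probes by median polish, which can shrink large differences and takes out a change common to nearly all genes. A low signal cannot be told from background without detection calls, and precision is limited by the 8 arrays. Of 22277 probe sets, 62 controls were left out. The annotation gave 19064 of the others 1 gene, 1043 several and 2108 none, and 19052 were matched to RefSeq by gene ID.

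Tests were run with limma 3.58.1 in R 4.3.3 (lmFit, eBayes with a trend), two-sided, adjusted by Benjamini-Hochberg over 22215 probe sets at 0.05. Knockdown against scramble used clone as a random block (duplicateCorrelation, statmod 1.5.0). Its consensus correlation was -0.068, and 0.235 once replicate number was added as a term. A negative value makes standard errors smaller than those of independent arrays, so the block in the main fit did not allow for differences between clones. Over the array 657 probe sets were called with that block, 489 without it and 1 with clone means. Member calls were 3, 3 and 0. Clone pairs were compared with 1 mean per clone, and replicate numbers with clone as a fixed term. Replicate deviations correlated in all 6 pairs of clones (r = 0.42 to 0.78 across probe sets), so the numbers were taken to pair arrays, as a hint from the data. The fits were tested on simulated data. For the knockdown fits these held no differences between clones of a condition. They therefore do not show how often such differences give false calls.

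Members and lists were chosen with earlier results of these data known. Of the listed genes, 1 is not reported here. Named list genes are those called, at most 4 a list by p, or else the 1 with the smallest p. The alternatives were the trend, a filter at the 25th percentile of probe-set means, quantile normalization, median centring, the clone and replicate blocks, clone means, 1 probe set per gene, and omission of arrays, clones or replicate numbers. Promoter windows came from RefSeq (GRCh38.p14), with 11 windows for the 9 genes.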

Additional observations from a re-analysis of the deposited data

Results flagged for a closer look

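In groups of 4 arrays, a value was marked when its gap to the nearest other array exceeded Dixon's 95% critical share of the group's range, which chance does in about 1 of 20 groups. This held in 2 of 38 groups. The first array of clone B read 8.63 in INSR 213792_s_at, where the next knockdown array was at 8.12 and the lowest at 8.06, a gap of 0.898 of the range. The second array of clone B read 10.17 in IRS2 209184_s_at, where the next was at 10.34 and the highest at 10.38, a gap of 0.840 of the range.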

How the results depend on the processing

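Under the trend, filter, normalization and probe-set alternatives, and without the clone block, between 3 and 4 members were called in knockdown against scramble, as against 3, with IGFBP4 added under the filter, both normalizations and 1 probe set per gene. The count was 0 with clone means, 0 without clone B or without clone G, 0 within replicate 1 and 0 within replicate 2, 5 with the replicate block but no clone block, 13 without clone H and 6 without clone M. Omitting single arrays gave 0 to 10 (0 without the second array of clone B, 6 and 10 without the first and second array of clone H). With the replicate block IGFBP4 was gained and no member call was lost. For clone H minus clone M the count was 1, 4 with the replicate block, and 0 to 2 on omitting single arrays (2 without either array of clone B). Between replicates it was 4, 0 in the scramble clones alone, and 0 to 5 on omitting arrays, 0 without either array of clone B and 2 without either of clone G. An omitted array leaves its partner without information on the replicate number. The interaction count was 0, and 0 to 1 on omission (IGF1R 208441_at without either array of clone H). For clone B minus clone G it was 0 throughout.

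Of 426 values of single members under other settings, 22 lost the call, 31 gained it and 22 changed sign, the last all among uncalled differences. IGF1R 208441_at was 0.058 without clone B and 0.189 within replicate 2, and -0.199 to 0.0312 on omitting arrays. IGFBP5 203424_s_at was -0.019 without clone B, -0.20 without clone H, -0.0399 within replicate 2, and -0.13 to 0.11 on omission. IGFBP5 211959_at was 0.0631 without clone G, 0.176 without clone M, 0.0462 within replicate 1, and -0.436 to 0.018 on omission. IGFBP5 211958_at was 0.15 without clone M, and -0.30 to 0.04 on omission. IGFBP5 203425_s_at was -0.0608 within replicate 1, and -0.0048 to 0.0383 on omission. INSR 207851_s_at was -0.0671 within replicate 2, and -0.0074 to 0.11 on omission. IGFBP5 203426_s_at was -0.0286 within replicate 2.

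The limits are 2 clones per condition, duplicates of unstated origin, and RMA signals without detection calls. With so few clones a clone effect and a knockdown effect cannot be told apart for any member, least of all where only 1 clone differs, as for IGFBP3.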

Other observations

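Genes of the binding protein, AKT, mTOR and FOXO lists differed by replicate number, and those below are the 5 of the 128 list genes with the widest such differences, so they were picked after their values were seen. TXNIP, a glucose-responsive inhibitor of thioredoxin and a FOXO target, read 12.39 and 9.005 in clone B, 12.18 and 8.87 in clone G, 10.01 and 7.78 in clone H, and 10.93 and 7.82 in clone M. Replicate 2 was lower in every clone, with a fitted difference of -3.01 (limma adjusted p = 5.31e-04). Between the conditions TXNIP differed by 1.48, with a limma adjusted p of 0.414, and of 0.0161 with the replicate block. SGK1, a kinase related to AKT, had a difference of -1.87 (limma adjusted p = 0.00404). DDIT4, an inhibitor of mTOR signalling, was higher by 1.03 (limma adjusted p = 0.00302), TRIB3, a stress-induced pseudokinase, by 1.25 (limma adjusted p = 0.00243), and STC2, an inhibitor of the binding protein protease PAPPA, by 1.56 (limma adjusted p = 0.00358). What the replicate numbers stand for was not given in the sources used here.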
